A study of Drosophila melanogaster with 3 samples.

Results

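The EGF and FGF receptor signalling genes that select muscle and heart progenitors in the Drosophila melanogaster embryo were described by the chromatin peaks of slouch (slou). The 10 genes were a fixed list taken by symbol from the Ensembl annotation, out of 13968 protein-coding genes: spi, ths, pyr, rho, Egfr, htl, stumps, pnt, aos and sty. Slou is an NK-type homeodomain protein that gives certain muscle founder cells and neurons their identity. It was assayed by ChIP-seq, sequencing of the DNA fragments pulled down with an antibody, here against GFP. The embryos were from a transgenic line with stable expression of slou joined at its C terminus to GFP, of mixed sex, 0 to 24 h old and taken whole. All 3 samples carried this fusion and are biological replicates of 1 group, so no genotype, treatment or time was compared and no p-value is given. No control library is among them, and the depth of each is unknown. Whole embryos mix many cell types and a day of development, so a peak has no cell type or stage of its own.

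Both pathways run from a secreted ligand through a receptor tyrosine kinase to Ras and MAP kinase. In the EGF branch the membrane-bound ligand Spitz (spi) is released by the protease Rhomboid (rho) and binds Egfr. In the FGF branch Thisbe (ths) and Pyramus (pyr) bind the receptor Heartless (htl), which signals through the adaptor Stumps, also called Dof, and guides the spread and subdivision of the mesoderm. Both branches can act through the ETS factor Pointed (pnt). Argos (aos) sequesters Spitz outside the cell, and Sprouty (sty) dampens receptor tyrosine kinase signalling inside it, and both are classical feedback inhibitors.

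Peaks of 2 kinds of list were used, in the genome build dm6: the authors' pooled list of 30000 peaks, and their optimal list of 2743 peaks, which are the highest-scoring of the pooled list. A peak's summit is the deposited summit position, and its rank is its place by the authors' own score, from 1 for the highest. The windows were the gene body and 1 kb upstream. They held 116 pooled-list summits, of which 13, in 7 of the 10 genes, were optimal. The bases around the highest optimal summit are shown for 5 of these genes, since these are the stretches on which the description rests, and around a further aos summit chosen after its motif was seen. Each run has the summit and 50 bases to each side on the plus strand, 5′ to 3′, from the RefSeq genome of Release 6. The single capital at its centre is the summit base, and a capital run of 6 is a homeodomain core, TAATTA or TAATTG.
spi, 2L:19575780-19575880: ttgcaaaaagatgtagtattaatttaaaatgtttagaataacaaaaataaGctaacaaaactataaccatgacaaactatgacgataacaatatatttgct
aos in the intron, 3L:16480502-16480602: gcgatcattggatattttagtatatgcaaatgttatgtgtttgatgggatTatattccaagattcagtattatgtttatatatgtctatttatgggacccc
aos at the start site, 3L:16483789-16483889: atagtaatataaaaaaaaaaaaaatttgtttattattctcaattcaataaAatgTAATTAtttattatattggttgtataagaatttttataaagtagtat
pnt, 3R:23326473-23326573: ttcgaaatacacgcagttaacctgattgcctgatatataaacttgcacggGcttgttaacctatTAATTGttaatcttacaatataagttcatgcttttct
sty, 3L:3418942-3419042: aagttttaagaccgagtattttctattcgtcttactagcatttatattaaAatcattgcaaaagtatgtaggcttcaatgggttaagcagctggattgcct
stumps, 3R:14591161-14591261: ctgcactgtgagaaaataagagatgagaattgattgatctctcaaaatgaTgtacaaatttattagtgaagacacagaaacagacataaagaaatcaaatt

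These windows are rich in A and T. The spi run was 77.2% A or T, the intronic aos run 69.3%, the pnt run 67.3%, the sty run 66.3% and the stumps run 70.3%. The aos start-site run, with its stretches of A, reached 88.1%, and the second aos start-site summit, farther upstream, had 56.4%. Over all 13 optimal summits in the gene windows the share was 70.3% ± 8.08 (SD, n = 13 summits), against 66.7% ± 8.68 (SD, n = 2730) at the rest of the optimal list. Each SD describes the spread of single summits, several of them in the same gene. The difference of the means was not tested.

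**Figure D1:**
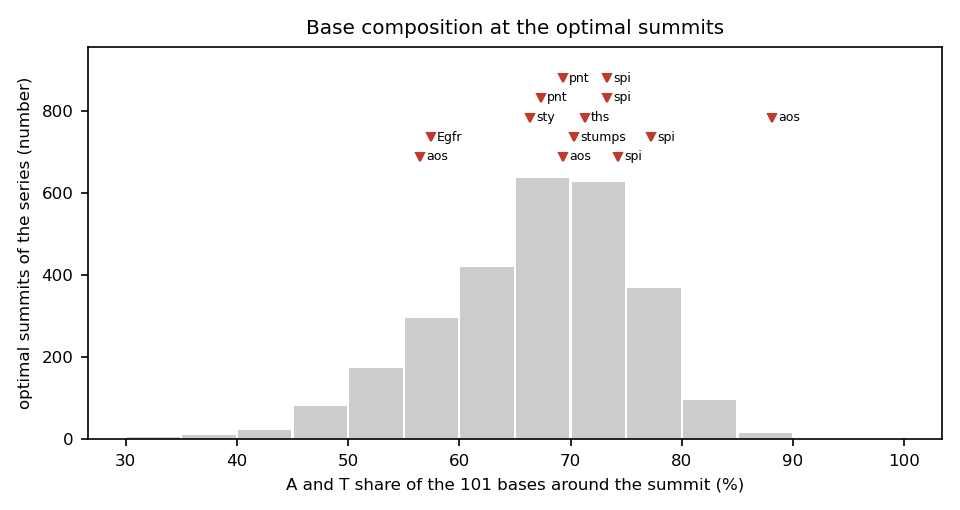
Share of A and T at each optimal summit and 50 bases to each side (horizontal axis, percent). Bars count all 2743 optimal summits and the labelled triangles mark the 13 in the gene windows, stacked only for legibility; 12 of them lie between 56.4% and 77.2%, and the aos start-site summit stands at 88.1%, the highest value of the rest of the list too.

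A homeodomain core lay at 2 of the 13 summits (15.4%, 95% Wilson interval 4.33% to 42.2%), against 20.5% of the rest of the optimal list, a share inside that interval. Searched on both strands within 50 bp, TAATTA lay at 1 of 13 summits (7.69%, interval 1.37% to 33.3%), against 10.8% of the rest of the optimal list and 7.84% of the lower-ranked pooled-list summits outside the windows. It was the aos start-site summit, with the core 4 to 9 bp to the right of it. TAATTG lay at 1 of 13 as well, the higher pnt summit, 14 to 19 bp to its right, against 11.4% of the rest of the optimal list. The ETS core CCGGAA, which Pointed-type factors bind, lay at 0 of 13 (up to 22.8% by the Wilson interval), against 1.98%, and the E-box CATATG, bound by bHLH factors, at 0 of 13, against 3.99%. Among the 103 lower-ranked summits of the genes, 8.74% held TAATTA and 14.6% TAATTG. A match describes letters and is not evidence of a site, and the window decides the count: within 100 bp, TAATTA lay at 30.8% of the 13 summits (interval 12.7% to 57.6%), against 19.1% of the rest of the optimal list.

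A gene is called bound here when an optimal summit lay in its window, which does not show that the summit acts on that gene. By this rule 7 of 10 genes were bound, against 31.1% of the 8832 annotated coding genes whose window held any pooled-list summit. Long windows collect more summits: among the 2810 such genes with windows in the length range of the 10, 6134 to 58608 bp, 36.5% were bound. The median rank of a gene's highest summit was 2169 in the 10 genes, 4440 in the genes of like length and 5796.5 in all genes. The genes were listed with earlier results of these peaks known, so these shares describe the list and were not tested.

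The ligand spi carried the highest summit and the most optimal ones, 4 of its 6 pooled-list summits. Its gene (FBgn0005672, 2L:19567900-19577315, minus strand) has 5 annotated transcripts and 3 start sites. The highest peak (2L:19575806-19575962, 157 bp wide) had its summit at base 19575830, inside the gene body at −243 bp from an internal spi start site, with a score of 405 and pooled rank 110. It ranked 92, 146 and 110 in replicates 1, 2 and 3, close together and high in each list of 30000.

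The other spi summits were lower and less even between replicates. A pair of overlapping peaks covered the 5′ end (2L:19577183-19577794), with summits at −63 and −285 bp from the first spi start site and pooled ranks 1520 and 2100. In every replicate the highest-scoring overlapping peak was the same for both, at ranks 2747, 1160 and 1432. This stretch is also the upstream window of msb1l, whose start site is nearer to the second summit (−101 bp), so the pair cannot be given to spi alone. The last summit (2L:19572718-19573107, pooled rank 1747) lay at −303 bp from another internal start site. It ranked 6446, 2283 and 1238, low in replicate 1 and among the 2743 highest in the other replicates.

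The FGF ligands differed from each other. The ths gene (FBgn0033652, 2R:11756817-11814424, plus strand) had 27 pooled-list summits, the most of the 10 genes, in the longest window. A single one was optimal. It lay in an intron at 2R:11791641-11792030, 1470 bp downstream of an internal start site and 60.8% of the way along the gene, with a score of 202 and pooled rank 590. Its ranks of 682, 632 and 643 in replicates 1, 2 and 3 were among the most even of the set, and the replicate summits lay within 21 bp of each other. The next ths summit had pooled rank 5859.

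The other FGF ligand, pyr (FBgn0033649, 2R:11712263-11726345, plus strand), had 8 pooled-list summits and no optimal one. The highest was intronic, 4837 bp from the start site, with a score of 57.7, pooled rank 6059 and replicate ranks of 10600, 7465 and 8056. The 3 replicate summits spread over 264 bp. Between the 2 neighbouring ligand genes lay 1 optimal summit outside both windows, at base 11742948 of the same arm, 16603 bp past the end of pyr and 13869 bp before the start of ths. It had pooled rank 2258 and replicate ranks of 4000, 1923 and 2346.

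Rhomboid's gene, the shortest of the set, had the lowest highest summit. The rho gene (FBgn0004635, 3L:1463811-1468944, plus strand) held 3 pooled-list summits, all also in the window of Ptp61F, and none was optimal. The highest was 688 bp downstream of its start site, with a score of 41.2 and pooled rank 12632. It ranked 21679, 12921 and 6948, widely spread over the middle and lower parts of the lists. The nearest optimal summit to the rho start site was 70498 bp away, at the start site of Iml1.

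Neither receptor gene had a strong summit. Egfr (FBgn0003731, 2R:21522420-21559977, plus strand) had 13 pooled-list summits and 1 optimal one, at 2R:21535401-21535790 in an intron, with a score of 95.9 and pooled rank 2564, close to the bottom of that list. Its ranks were 4696, 2170 and 2870 over replicates 1, 2 and 3, inside the 2743 highest only in replicate 2. The nearest protein-coding start site was that of CG30286, 1199 bp away, and the nearest Egfr start site stood at −11047 bp.

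The FGF receptor gene htl (FBgn0010389, 3R:18045216-18052984, minus strand), had 2 pooled-list summits and no optimal one. The higher lay at −420 bp from an internal htl start site, with a score of 78.0, pooled rank 3597 and a −log10 q of 1.63. It ranked 2573, 6803 and 5661, so replicate 1 alone placed it among its 2743 highest. The 3 replicate summits agreed to within 62 bp. The nearest optimal summit to an htl start site was 72239 bp away, in an intron of sr, which encodes a tendon cell factor.

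The adaptor gene stumps (FBgn0020299, 3R:14577217-14608079, plus strand) had the lowest optimal summit of the set. Of its 11 pooled-list summits, 1 was optimal, at 3R:14591016-14591405 and −409 bp from the second of its 5 start sites, with a score of 94.1 and pooled rank 2634. It ranked 2229, 3559 and 2025. For scale, the last optimal peak of the series had a score of 92.0. Stronger optimal summits flanked the gene outside its window: one 1879 bp before its 5′ end, in an intron of CG7987, with pooled rank 1331, and one 1337 bp past its 3′ end, at −226 bp from the start site of CG14853, with pooled rank 889.

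The nuclear effector gene pnt (FBgn0003118, 3R:23290231-23346167, minus strand) held 23 pooled-list summits, of which 2 were optimal, both intronic and far from any start site. The higher (3R:23326328-23326717) had a score of 142 and pooled rank 1272 and lay at −12208 bp from an internal pnt start site. It ranked 871, 2083 and 1622, among the 2743 highest in all 3 replicates. The lower (3R:23335514-23335903, pooled rank 2455) lay 10458 bp downstream of the first start site and ranked 1363, 1058 and 9533. Its support came from replicates 1 and 2, with replicate 3 far lower.

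Argos, the secreted inhibitor of Spitz, had the second highest summit of the set. The aos gene (FBgn0004569, 3L:16470386-16483650, minus strand) has 1 transcript and held 6 pooled-list summits, 3 of them optimal. All 6 also lay in the window of CG33158, so they cannot be given to aos alone, although the nearest protein-coding start site of the 3 optimal ones was that of aos. The highest was intronic, 3098 bp downstream of the start site, in a peak only 99 bp wide (3L:16480506-16480604). It had a score of 230 and pooled rank 442, and ranked 350, 553 and 623 in replicates 1, 2 and 3. An overlapping pair covered the start site and the stretch before it (3L:16483644-16484234), with summits at −189 and −390 bp and pooled ranks 1395 and 1862. For both summits the highest-scoring overlapping peak in each replicate was the same, at ranks 1519, 1214 and 947. The summit of that replicate peak was near the first of the pair in replicates 1 and 2 and near the second in replicate 3.

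The intracellular inhibitor gene sty (FBgn0014388, 3L:3401153-3424935, minus strand) had the densest pooled-list summits of the set, 6.86 per 10 kb of window, but 1 optimal summit among 17. It was intronic, at 3L:3418797-3419186 and −1031 bp from an internal start site, with a score of 119 and pooled rank 1774. The replicate ranks of 2024, 1837 and 1810 lay close together, as did the replicate summits, within 38 bp. A higher optimal summit stood upstream of the window, at base 3432826, in an intron of another annotated gene. The nearest protein-coding start site was that of sty (−7891 bp). This summit had pooled rank 1034 and ranked 1929, 1432 and 693.

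**Figure D2:**
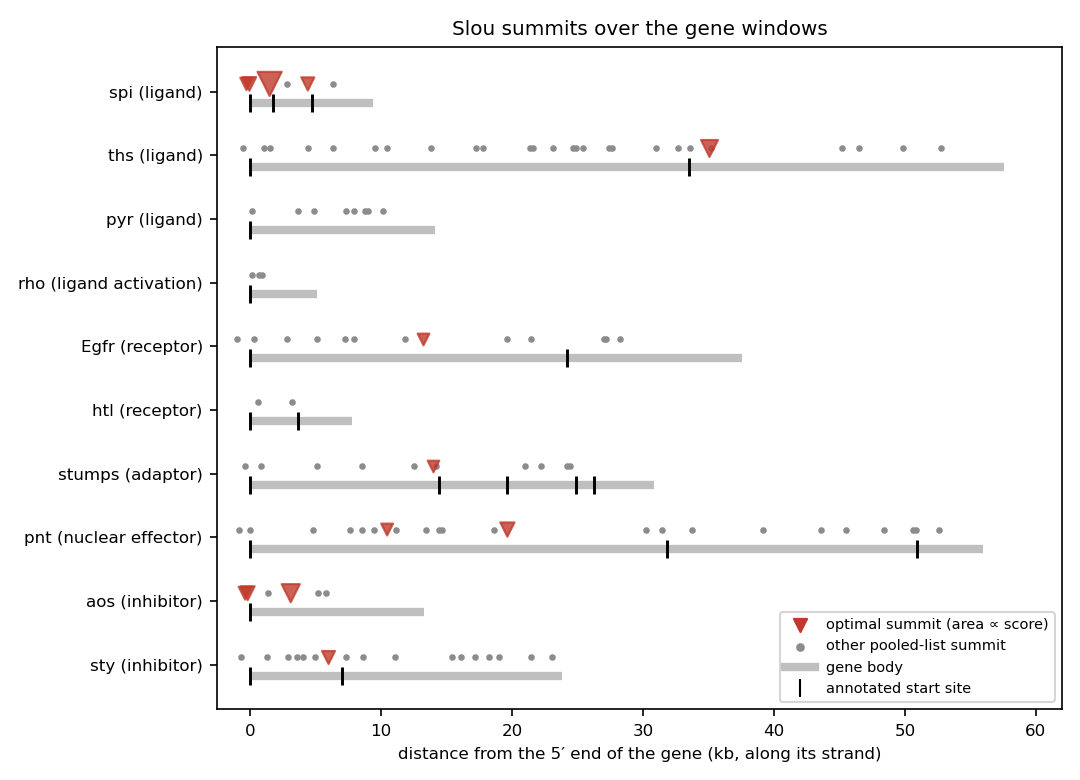
Summits along the 10 genes, each drawn from its 5′ end to the right (horizontal axis, kilobases along the gene's strand). Red triangles are optimal summits with area in proportion to the authors' score, grey dots are other pooled-list summits, grey bars are gene bodies and black ticks are annotated start sites; spi has an overlapping pair at the 5′ end and 2 internal summits, aos has such a pair and 1 internal summit, and ths, Egfr and pnt have internal summits only.

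Ordered by the pooled rank of the highest summit, the genes ran spi, aos, ths, pnt, sty, Egfr, stumps, htl, pyr and rho. The spread over replicates separated some neighbours and not others. The replicate ranks of the same summits did not overlap between spi (92 to 146), aos (350 to 623) and ths (632 to 682), with aos and ths nearly touching. They overlapped between pnt (871 to 2083) and sty (1810 to 2024), between Egfr (2170 to 4696) and stumps (2025 to 3559), between stumps and htl (2573 to 6803), and between pyr (7465 to 10600) and rho (6948 to 21679). Among genes that are not neighbours in this order, Egfr and htl overlapped too, as did pnt and stumps. The order of all those pairs was therefore not resolved by 3 replicates. Where ranges did not overlap, each range still rests on only 3 values.

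**Figure D3:**
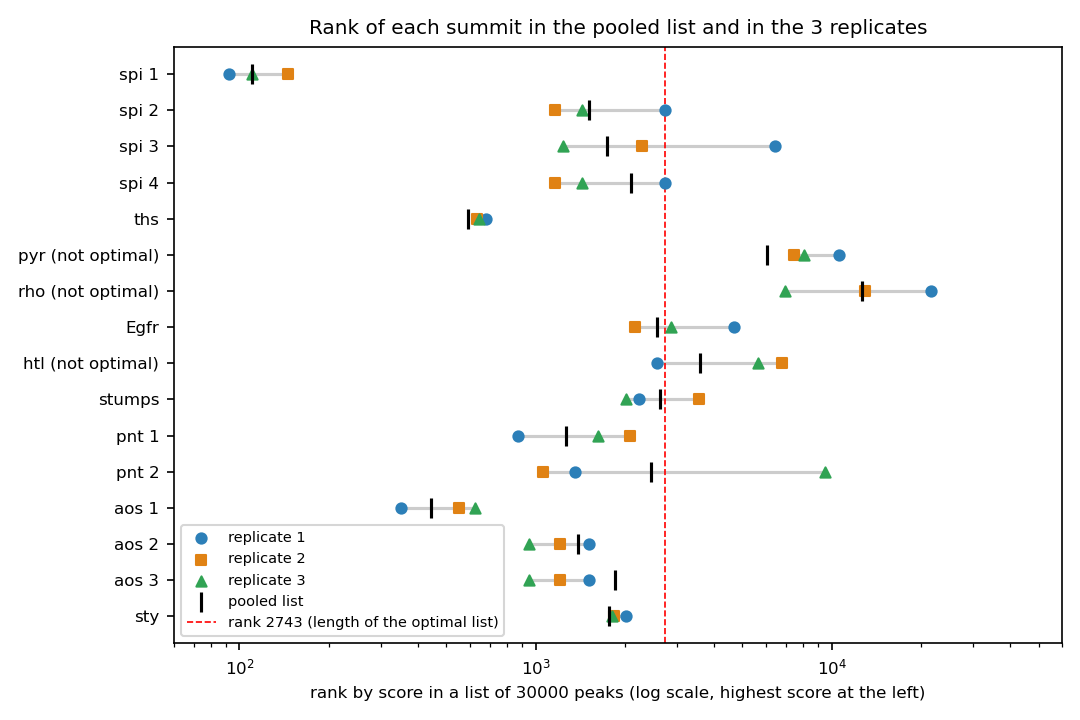
Rank of each of the 13 optimal summits, numbered within a gene by pooled rank, and of the highest summit of pyr, rho and htl (horizontal axis, rank by score on a log scale, highest score at the left). Coloured symbols are replicates 1, 2 and 3, the black tick is the pooled list and the dashed line is rank 2743; spi 1, ths, aos 1 and sty have tight symbols left of the line, and spi 3 and pnt 2 have 1 replicate far to the right.

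Each replicate taken alone gave a similar list of genes. A summit among the 2743 highest of the replicate lay in the window of 7, 6 and 6 of the 10 genes in replicates 1, 2 and 3, against 29.8%, 31.3% and 30.3% of the 8832 genes. The genes spi, ths, pnt, aos and sty had one in all 3 replicates, and pyr and rho in none. Of the 13 optimal peaks, 7 were overlapped by a peak among the 2743 highest in all 3 replicates (53.8%, Wilson interval 29.1% to 76.8%), close to the 60.7% of all optimal peaks. Another 5 were overlapped in 2 replicates and 1, that of Egfr, in 1. All 13 were found in all 3 whole replicate lists. Per replicate, 69.2%, 92.3% and 84.6% of the 13 were overlapped (mean 82.1% ± 11.8, SD, n = 3), against 82.8% ± 3.04 of all optimal peaks.

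Set by role, the inhibitor genes had the densest optimal summits. The inhibitor genes aos and sty held 4 optimal summits, 1.02 per 10 kb of window, and all 4 were matched in the 3 replicates, 2 of them by the same replicate peaks. The 3 at aos are shared with the window of CG33158. The ligand genes spi, ths and pyr held 5, 0.594 per 10 kb, of which 2 were matched in all 3. The overlapping spi pair, shared with the window of msb1l, went unmatched in replicate 1 only. The replicate 1 peak for that pair ranked 2747, just past the limit of 2743. The remaining unmatched ligand summit, also at spi, ranked 6446 in replicate 1. The receptor genes Egfr and htl held 1 optimal summit, 0.211 per 10 kb, and it was not matched in all 3. That density is near the 0.205 per 10 kb of the whole genome, which includes sequence outside gene windows. The stumps adaptor gene had 0.314 and pnt 0.351 per 10 kb, and rho had none.

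The roles rest on 1 to 3 genes each, and within the ligand and inhibitor roles the genes differed more than the roles did. Among ligands spi had 3.84 optimal summits per 10 kb, ths 0.171 and pyr none; of the inhibitors, aos had 2.10 and sty 0.404. A split by branch set the EGF genes spi, rho, Egfr and aos, with 8 optimal of 28 pooled-list summits (1.15 optimal per 10 kb), beside the FGF genes ths, pyr, htl and stumps, with 2 of 48 (0.175 per 10 kb). The branches were alike in pooled-list density, 4.04 and 4.20 summits per 10 kb. Of the 8 EGF-branch summits, 7 came from spi and aos.

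Pooled-list summits of all ranks were also denser in the 10 genes, at 4.37 per 10 kb of window, against 2.24 over the genome. The genome value includes sequence outside gene windows, and the density over all gene windows was not taken. Of the 116, 11.2% were optimal, against 9.14% of the whole pooled list. The optimal summits of the genes were not higher than others once on the list: their median score was 120 and median rank 1747, against 136 and 1369.5 for the rest of the optimal list. The highest −log10 q of the list, 3.03, was reached by 6 of 13 (46.2%), against 58.9% of the rest.

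By position, 7 of the 13 lay within 500 bp of a protein-coding start site (53.8%), against 56.1% of the rest of the optimal list. The other 6 were intronic (46.2%, Wilson interval 23.2% to 70.9%), against 29.8% of the rest, whose share lies inside that interval. None of those away from a start site fell in coding sequence, in a UTR or between genes. Of the 13, 9 lay inside the gene's own body, and the others, at spi and aos, lay just before its 5′ end. Only spi, aos and stumps had optimal summits near a start site, and those of ths, Egfr, pnt and sty were all intronic. Among the 103 lower-ranked summits of the genes 76.7% were intronic, against 43.4% of the others in the pooled list. The windows begin 1 kb before the gene, so summits between genes could hardly enter this count.

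A wider list of 36 genes of these pathways was read the same way, again listed with earlier results known. A pooled-list summit lay in the window of 30 of them, and 17 were bound, 56.7% of those 30, against 31.1% of all genes. The median rank of the highest summit was 1959, against 5796.5 in all genes. These windows ran from 2662 bp (Shc) to 85373 bp (ed). Neither value was set against genes of like window length, so part of either difference may come from long windows. Of the 17 genes, 13 had a highest summit matched in all 3 replicates, and 60.7% of all optimal peaks were matched in this way. The count of 13 takes only the highest summit of each gene, so it is not a like comparison with all optimal peaks. The windows of rho-5, rho-6, btl, ksr, Nf1 and PTP-ER had no pooled-list summit.

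The pattern by role was again uneven. All 3 nuclear factor genes were bound: edl, an antagonist of ETS factors (pooled rank 707), the repressor gene cic (817) and aop, the ETS repressor Yan (1453). Of 7 negative regulator genes with a summit, 5 were bound: RasGAP1 (286), Socs36E (392), Spred (842), ed (1238) and the MAP kinase phosphatase gene Mkp3 (1592). Of 11 adaptor and Ras/MAP kinase core genes with a summit, 5 were bound: Shc (16), Raf (174, with 6 optimal summits), drk (317), dos (1307) and Ras85D (1744). The kinase genes Dsor1 and rl and the exchange factor gene Sos were not.

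Ligand genes and those of ligand processing were bound in part. Of genes with a summit, 33.3% were bound both for EGF ligands and for ligand processing, near the 31.1% of all such genes. Of the EGF ligand genes, Krn was bound (949), and vn (3010) and grk (5943) were not. The FGF ligand gene bnl was bound close to the end of the optimal list (2578). Star (S), whose product carries Spitz out of the endoplasmic reticulum, was bound at rank 238 in an intron, ranking 135, 410 and 277 in replicates 1, 2 and 3, and the Rhomboid relatives ru (5172) and rho-4 (27353) were not. In heparan sulphate synthesis, sgl was bound (2174) and sfl was not (3771). At 4 of the 17 genes the highest summit was nearest to the start site of another gene: Atat for Shc, mars for drk, BEAF-32 for Spred and Sr-CIII for ed. The highest Krn summit, not counted among these, was equally near to the start sites of Krn and Ndfip.

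**Figure D4:**
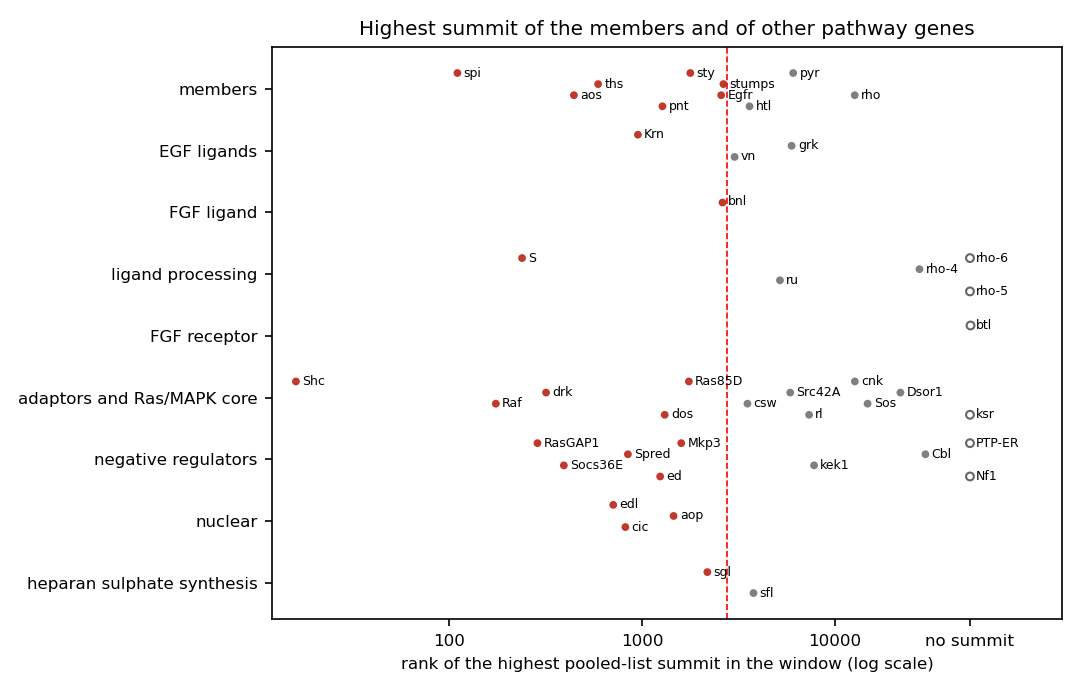
Rank of the highest pooled-list summit of each gene (horizontal axis, log scale, highest score at the left), for the 10 genes described (top row, labelled members) and the 36 further pathway genes by role. Red points have an optimal summit, grey points have none, open circles have no pooled-list summit and the dashed line is rank 2743; all 3 nuclear genes are red, and Shc (16) is farthest left.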

How the data were processed

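ChIP-seq peak lists of 3 biological replicates were analysed. Per the deposited README files, the authors called peaks against a control alignment, both per replicate and on pooled replicates, and derived the optimal list by a rank-based reproducibility procedure. Which aligner and which peak caller were used is not given in the sources used here. Each deposited score is the authors' own value, on a scale that no source states, and was used to rank and describe peaks of the same list only. The deposited −log10 q is likewise the authors' value. Columns for −log10 p were not used here. The dm6 optimal list equals the top 2743 by score of the pooled list's 30000. The files used hold no read counts, so depth is unknown. No control library is among the samples. All 3 replicates come from 1 transgenic line. The dm3 lists were not analysed here.

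Summits were placed on Ensembl release 115 gene models (BDGP 6.54), with 1-based dm6 coordinates, using Python 3.11.15, pandas 2.3.3, numpy 2.4.6, scipy 1.17.1 and matplotlib 3.10.9. A rank is 1 plus the number of higher scores. A replicate rank is that of the highest-scoring replicate peak overlapping by at least 1 bp, and a peak was matched in a replicate when that peak was among its 2743 highest. Position classes had the order start site (within 500 bp of a protein-coding one), 5′ UTR, 3′ UTR, coding sequence, noncoding exon, intron, intergenic. Distances are negative upstream. Wilson intervals (95%) cover counting error only. The steps were tested on simulated data.

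The members, the pathway list, the motifs and the alternatives were chosen with earlier results of these data known. All 10 members are named, as are bound genes of the 36-gene pathway list and genes with a start site nearest to a member's summit. Unbound pathway genes and summits outside the windows were named after their values were seen. Gap1 was found under its newer symbol RasGAP1, and all other symbols matched. The alternatives were other upstream lengths, the 1371 optimal peaks with the higher score, peaks matched in all 3 replicates, overlap of any base, a window of 1 kb around start sites, other matching rules and list lengths, other distances and motif windows, and leaving out each replicate.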

Additional observations from a re-analysis of the deposited data

How the results depend on the processing

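Among the recomputed values, 33 stayed within 1.5 times of a count or within the interval of a share, and 11 moved further. The 7 bound genes became 4 (spi, aos, ths and pnt) among the 1371 optimal peaks with the higher score and 3 (spi, aos and stumps) within 1 kb of the gene's own start sites, and 5 to 7 under every other setting. The 13 optimal summits became 4 in the higher-scoring peaks and 7 when matched in all 3 replicates. Leaving out each replicate in turn, with optimal peaks kept that both others matched, gave 8 to 10 summits and 5 to 6 bound genes, and 14 to 17 of the pathway list. The 7 peaks matched in all 3 replicates became 3 when 50% of both peaks had to overlap, 5 when summits had to lie within 100 bp, 3 with replicate lists of 1371 peaks, 11 with 5486, 13 with the whole lists and 8 to 10 without each replicate. The share near a start site (53.8%) was 25% of the only 4 summits in the higher-scoring peaks, 30.8% within 250 bp and 37.5% to 60% without each replicate. The share with TAATTA (7.69%) was 30.8% within 100 bp, where that of the rest of the optimal list was 19.1%. Alternatives added after the values were seen gave 11 merged regions and 6 genes with a summit nearest to their own start site, Egfr being the one lost. The causes were not tested. Except for TAATTA, the same values over all genes or all optimal peaks are not given for these settings. The changes therefore describe the settings and are not results about the listed genes. Bound pathway genes ranged from 12 to 20. No paired analysis was possible because all samples form 1 group. Depth is unknown, so a gene without an optimal summit is one where none was listed, not one where slou was shown to be absent.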
